A study of Mus musculus with 4 samples.

Results

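Of the 17389 BAP1 peaks on chromosomes 1 to 19 in mouse macrophages, 4076 shared no base with any HCF1 or OGT peak. They are called lone BAP1 peaks here, were chosen by position alone from the 3 deposited peak lists, and made up 23.4% of these BAP1 peaks (exact Clopper-Pearson 95% interval 22.8 to 24.1%). The rest were 7157 peaks that touched HCF1 only, 307 that touched OGT only and 5849 that touched HCF1 and OGT. The other lists held 30912 HCF1 and 10236 OGT peaks on the same chromosomes. "Shared" below means a BAP1 peak with at least 1 base in common with either of them.

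The peaks come from chromatin immunoprecipitation and sequencing (ChIP-seq) of primary bone marrow derived macrophages of C57BL/6 mice, grown in medium conditioned by L929 cells with no later treatment. For BAP1, an anti-FLAG antibody was used on macrophages whose genotype is labelled BAP1-3X Flag Tagged KI. HCF1, OGT and an input without antibody came from macrophages labelled BAP1 WT. The labels name bone marrow progenitors as the source and macrophages as the cell type. There was 1 library per protein, so the mice and the antibody differ together between the BAP1 list and the other lists, and their parts cannot be told apart. The labels give neither the age of the mice nor how many were used, and the name of the BAP1 list speaks of wild type cells where the labels give the knock-in, which was followed. Lists of peaks hold no expression values, so the cell type could not be checked against marker genes.

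BAP1 is a nuclear deubiquitinase of the ubiquitin C-terminal hydrolase family and a tumour suppressor. It removes ubiquitin from histone H2A within complexes that contain ASXL proteins, and it binds HCF1 through a short motif of its own. HCF1 is a large cofactor that connects transcription factors to chromatin-modifying enzymes, and OGT attaches N-acetylglucosamine to nuclear proteins, HCF1 among them, and takes part in the cleavage by which HCF1 matures. BAP1 also has partners that do not depend on HCF1, such as the forkhead proteins FOXK1 and FOXK2. A lone peak is a BAP1 call at which neither HCF1 nor OGT was called. It is not shown to be free of them, because a weak peak can fall below the limit of a list, and the read depth of the libraries is unknown.

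Lone peaks were mostly low in score. Their median score was 70.3 (95% interval of the median 69.1 to 71.2), with quartiles of 58.0 and 93.9 and a range of 50.01 to 1809.64. The median was 89.9 for BAP1 peaks with OGT only, 116 for those with HCF1 only and 194 for those with HCF1 and OGT. The score is the 1 number per peak that the authors deposited. What it is computed from is not stated in the labels or files, and the lowest value in the BAP1 list is 50.01. Of the lone peaks, 856 scored at least 100 (21.0%, 19.8 to 22.3%), where 56.2% of all autosomal BAP1 peaks did. At least 200 was reached by 121 lone peaks (2.97%, 2.47 to 3.54%), beside 25.5% of all. These values describe the lists and were not tested, since each protein has 1 library and peaks are not replicates.

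The lone share fell in each step up the score. It was 54.5% (52.1 to 56.9%) in the lowest decile of BAP1 scores, which ran from 50.01 to 57.22. In the fifth decile it was 24.2% (22.2 to 26.3%), close to the 23.4% of all autosomal BAP1 peaks. In the highest decile, from 336.06 upward, 25 of 1739 peaks were lone, or 1.44% (0.932 to 2.11%). The lowest 3 deciles together thus held most of the lone peaks, with 948, 828 and 707 of them. Peaks with HCF1 only followed another course: their share was highest in the seventh decile at 53.2% and was 18.5% in the highest, where 79.9% of the peaks had HCF1 and OGT.

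**Figure D1:**
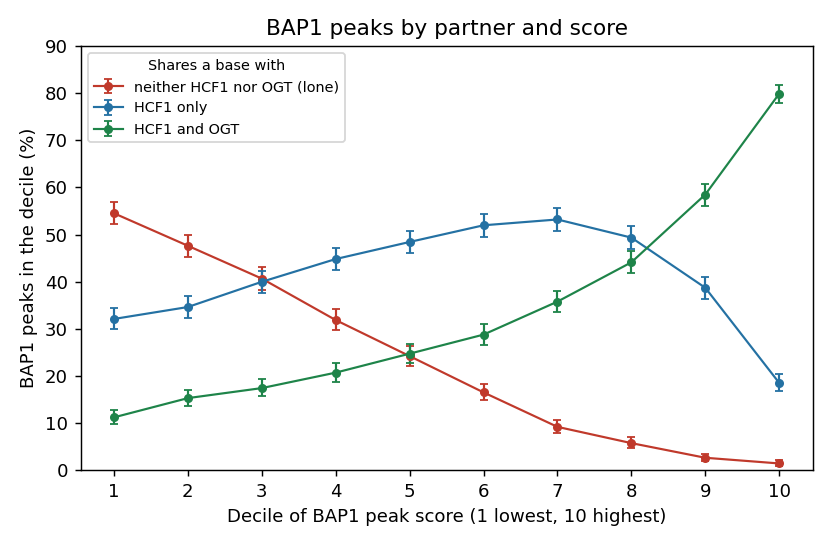
Share of autosomal BAP1 peaks (y axis, %) that are lone, touch HCF1 only, or touch HCF1 and OGT, in each decile of the BAP1 score (x axis). Points are shares and bars are exact 95% intervals for counting error. The lone share is 54.5% at the left end and 1.44% at the right end.

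Lone peaks were also narrow, and the difference was present among peaks of like score. Their median width was 974 bp (967 to 980 bp), with quartiles of 857 and 1133 bp and extremes of 406 and 3902 bp. Peaks with OGT only had a median of 1083 bp, those with HCF1 only 1239 bp, and those with HCF1 and OGT 1644 bp. Width rises with score, but within each score decile the lone peaks had the lower median. In the lowest decile the medians were 875.5 bp for lone and 986 bp for shared peaks, and in the highest 1131 and 2474 bp. Only 78 lone peaks were 2 kb or wider (1.91%, 1.52 to 2.38%), where 16.4% of all autosomal BAP1 peaks were. A narrow peak has less room to be touched by another, so the rule itself favours narrow members, and width is given as a description.

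The reverse view gave the same order. In the narrowest decile of BAP1 peaks, up to 867 bp, 62.7% (60.4 to 65.0%) were lone, and in the widest, from 2363 bp upward, 1.84% (1.26 to 2.59%). Among peaks of like width the lone ones scored lower. Their median was 59.5 against 63.7 for shared peaks in the narrowest decile, and 173 against 363 in the widest.

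The few strong lone peaks departed from this shape. The 25 in the highest score decile had a median width of 1131 bp. Lone peaks had a median of 1368.5 bp in the eighth decile and 1257 bp in the ninth, so the fall began there. Under 1 kb were 6 of the 25 (24.0%, 9.36 to 45.1%), against 5 of the 1714 shared peaks of that decile (0.292%, 0.0948 to 0.679%). The lone ones were the peaks on chromosome 17 at 56381089 to 56382052 and chromosome 15 at 77950019 to 77950613 and 76352429 to 76353070, and 3 more with scores of 356.51, 347.08 and 345.93. The latter lie on chromosome 2 at 32873347 to 32874118 and 38273123 to 38273878, and on chromosome 7 at 26561409 to 26562335. The 5 shared ones lie on chromosome 7 at 6362571 to 6363569, chromosome 3 at 5860460 to 5860991, chromosome 8 at 19784340 to 19785134, chromosome 2 at 90235125 to 90235531 and chromosome 9 at 110183452 to 110184353. The limit of 1 kb was chosen after the widths were seen, and the rule itself favours narrow members, so this contrast is a description. Whether these places hold repeated sequence was not tested. All positions are counted from 1 in mm9.

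**Figure D2:**
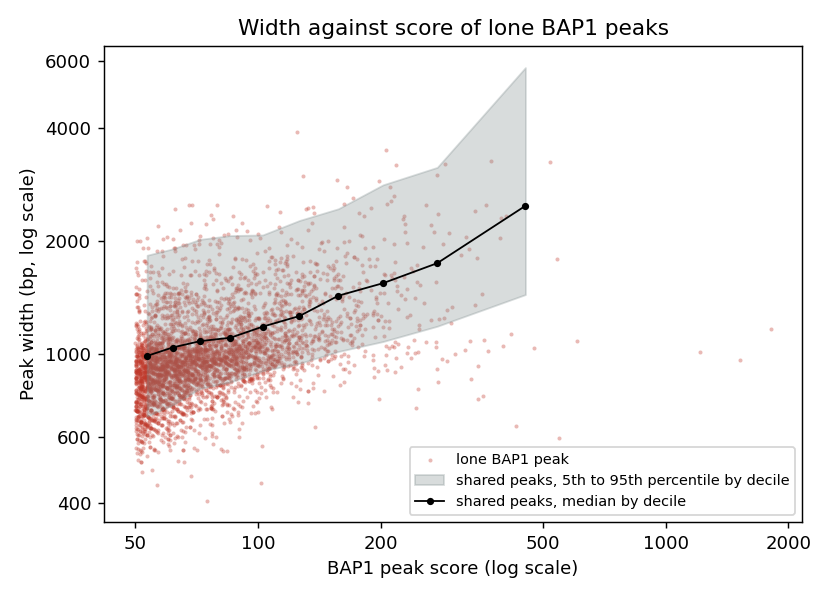
Width (y axis, bp, log scale) against score (x axis, log scale) of the 4076 lone BAP1 peaks, 1 point each. The line joins the median widths of shared BAP1 peaks at the median score of each decile, and the band runs from their 5th to their 95th percentile. Lone peaks crowd at scores near 50 to 100, and those above 1000 lie at widths of 964 to 1163 bp.

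Among the 10 highest-scoring lone peaks, scores dropped quickly from 1809.64 to 418.24. The highest, on chromosome 15 at 84659432 to 84660594, was 1163 bp wide. Its nearest HCF1 peak was 25.9 kb away with a score of 133.82, and its nearest other BAP1 peak 92.3 kb away. The peak that came next, at 1520.33 on chromosome 17 as given above, lay in a crowded stretch with 17 HCF1 peaks within 50 kb, the nearest of which scored 1359.47. The third, on chromosome 8 at 14072188 to 14073199, scored 1213.54, was 1012 bp wide and had 1 HCF1 peak within 50 kb. The fourth scored 606.8, on chromosome 7 from 134092933 to 134094012, and lay 1.05 kb from an OGT peak of score 51.77.

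The other 6 of these 10 lay at the following places. The peak at 77950019 on chromosome 15 was the narrowest of the 10 at 595 bp, scored 547.94 and had no HCF1 peak within 50 kb. The peak on chromosome 14 at 55002134 to 55003918 scored 540.16 and lay 460 bp from an HCF1 peak that scored 53.78, near the floor of that list. On chromosome 6, the peak at 124323273 to 124326511 was broad, at 3239 bp, and scored 521.17. It was 37.7 kb from HCF1 and 38.6 kb from OGT, and its nearest BAP1 neighbour, 13.5 kb away, was lone too. The last 3 scored 474.79 on chromosome 4 at 133576253 to 133577289, 429.03 on chromosome 15 at 76352429 to 76353070, and 418.24 on chromosome 8 at 87470671 to 87471801. Of the 10, 8 had a shared BAP1 peak as their nearest BAP1 neighbour. That is near the background, since the nearest was lone for 28.4% of all lone peaks and 22.8% of all autosomal BAP1 peaks.

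The 5 widest lone peaks ranged from 3197 to 3902 bp. The widest, on chromosome 14 at 56294306 to 56298207, scored 124.28 and was close to other sites, 264 bp from HCF1, 1.37 kb from OGT and 274 bp from a shared BAP1 peak. The next, on chromosome 10 at 44349827 to 44353303, scored 206.34 and lay 1.98 kb from HCF1. The one on chromosome 4 at 19798398 to 19801659 scored 372.13, lay 19.9 kb from HCF1 and had a lone neighbour 481 bp away. The peak on chromosome 6 at 124323273 was among the widest as well as the strongest. The fifth, on chromosome 6 at 116580194 to 116583390, scored 287.7 and was 1.22 kb from an HCF1 peak of score 51.17.

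The gaps from lone peaks to other sites covered a wide, continuous range. Measured between nearest edges, the median gap to an HCF1 peak was 11.6 kb (10.9 to 12.3 kb) and to an OGT peak 31.8 kb (29.9 to 34.0 kb). HCF1 was the closer of the other proteins for 3408 of the 4076, and its list is the longer. An HCF1 or OGT peak lay within 10 kb of 1977 lone peaks (48.5%, 47.0 to 50.1%) within 1 kb of 486 (11.9%, 10.9 to 13.0%), within 5 kb of 1381 (33.9%) and within 50 kb of 3479 (85.4%). The share within 10 kb depends on the rule that makes a peak lone, and ran from 36.1% to 72.0% under other rules and score limits. At the far end, 255 lone peaks (6.26%) had none within 100 kb.

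**Figure D3:**
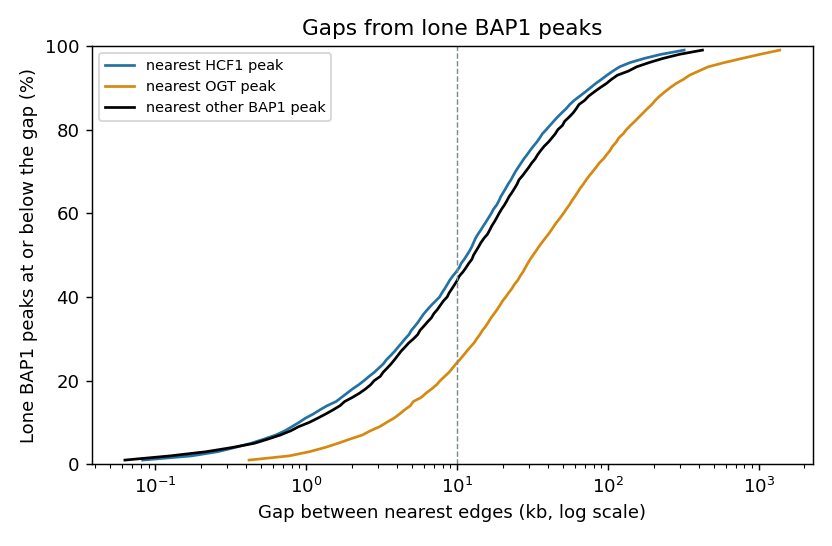
Cumulative share of lone BAP1 peaks (y axis, %) against the gap to the nearest HCF1, OGT or other BAP1 peak (x axis, kb, log scale), drawn from the 1st to the 99th percentile. The dashed line marks 10 kb, within which 46.4% have an HCF1 peak, 24.2% an OGT peak and 44.0% another BAP1 peak.

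The median score of lone peaks moved little with the distance to other sites. The median score was 68.4 (65.1 to 72.5) for lone peaks up to 0.5 kb from HCF1 or OGT, 71.0 (69.0 to 72.2) between 10 and 50 kb, and 73.9 (69.0 to 77.9) beyond 100 kb. The lowest median of the 7 distance bands was 66.8 (64.6 to 69.8), between 50 and 100 kb. Scores of at least 100 made up 20.1% (15.3 to 25.5%) of the nearest band and 22.4% (17.4 to 28.0%) of the farthest. Widths were slightly larger near other sites, at 1014.5 bp (981 to 1048 bp) in the nearest band and 944 bp (922 to 960 bp) in the farthest.

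The surroundings of lone peaks were compared with those of the other BAP1 peaks, leaving out the peaks that touch them. A separate HCF1 or OGT peak lay within 10 kb of 57.4% (56.2 to 58.5%) of BAP1 peaks with HCF1 only and 73.1% (72.0 to 74.3%) of those with HCF1 and OGT, above the 48.5% of lone peaks. The mean number of HCF1 peaks within 50 kb was 4.38 for lone peaks, 4.75 for those with HCF1 only and 6.83 for those with HCF1 and OGT. The distance to OGT was alike in lone peaks and in peaks with HCF1 only, with medians of 31.8 kb (29.9 to 34.0 kb) and 30.3 kb (28.9 to 31.9 kb). Peaks with OGT only, the closest in score, had HCF1 at a median of 6.95 kb (5.31 to 8.30 kb).

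HCF1 peaks next to a lone peak had a slightly lower median score than all HCF1 peaks, and some touched another BAP1 peak. For the 458 lone peaks with HCF1 within 1 kb, that HCF1 peak had a median score of 92.2 (84.3 to 102), against 105 for all autosomal HCF1 peaks. It touched another BAP1 peak in 219 cases (47.8%, 43.2 to 52.5%), where 47.7% of all autosomal HCF1 peaks touch BAP1. It touched OGT in 104 cases (22.7%, 18.9 to 26.8%), where 26.8% of all do. By the rule, these HCF1 peaks do not touch the lone peak beside them, a condition that the full HCF1 list does not carry. The comparisons are thus between unlike sets and are given as description. An HCF1 peak beside more than 1 lone peak is counted for each.

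Lone peaks lay somewhat farther from other BAP1 peaks than BAP1 peaks at large did. The median gap to the nearest one was 12.8 kb, against 10.9 kb for all autosomal BAP1 peaks, 13.2 kb for those with HCF1 only and 7.85 kb for those with HCF1 and OGT. Another BAP1 peak lay within 1 kb of 401 lone peaks (9.84%, 8.94 to 10.8%). The like share of all BAP1 peaks is not given here. The nearest BAP1 peak was shared for 270 of the 401 and lone for 131 (32.7%, 28.1 to 37.5%). At any distance it was lone for 28.4% of lone peaks and 22.8% of all autosomal BAP1 peaks. The shared neighbours had a median score of 177 (151 to 201), above the 140 of all shared peaks, while the lone peaks beside them had 69.4 (67.1 to 72.8). Whether such pairs are parts of 1 bound region was not tested.

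Within 50 bp of the edge of the rule, members and non-members had similar scores, and beyond that the shared peaks scored higher. A gap and a number of shared bases are unlike measures, since a peak is at least as wide as the bases it shares. The 29 lone peaks with a gap of at most 50 bp had a median score of 68.8 and a median width of 982 bp. The 23 shared peaks with at most 50 bases in common had 66.6 and 1034 bp. From 51 to 100 bp, the median scores were 70.5 for 22 lone peaks and 77.1 for 22 shared ones. Above 100 and up to 250 bp of gap or of shared bases, the medians were 68.5 and 1070 bp for 79 lone peaks, and 78.1 and 966.5 bp for 88 shared ones. Above 250 and up to 500 bp, the median scores were 67.7 and 86.2. The lone peak nearest to another list, on chromosome 11 at 32258295 to 32259092, abutted an HCF1 peak with a gap of 0 bp and scored 66.39. The next 2 had gaps of 5 and 9 bp, on chromosome 1 at 79748662 to 79749282 and chromosome 19 at 4227941 to 4228992. Just outside, the peaks on chromosome 15 at 60656097 to 60657546 and chromosome 7 at 19678968 to 19679777 shared 5 bases with an HCF1 peak. The peak on chromosome 2 at 148507503 to 148508573 shared 7 with one.

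The most distant lone peaks stood in regions nearly empty of other peaks. Among lone peaks with a score of at least 100, the farthest, on chromosome 1 at 170362084 to 170363199, scored 120.17 and lay 1081.6 kb from HCF1 and 1037.2 kb from the nearest BAP1 peak. The next, on chromosome 16 at 7419758 to 7420572, scored 107.27 and was 1050.1 kb from HCF1. The peak on chromosome 6 at 133054683 to 133056132 had the highest score of the 5, 203.59, and a gap of 798.9 kb. The other 2 lay on chromosome 15 at 90054137 to 90055114, with a score of 107.38, and on chromosome 10 at 5151234 to 5152497, with 110.22.

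The nearest neighbour of a lone peak was lone somewhat more often than that of BAP1 peaks at large. The nearest BAP1 peak was itself lone for 1157 of the 4076 (28.4%, 27.0 to 29.8%), where it was lone for 22.8% of all autosomal BAP1 peaks, 22.9% (21.9 to 23.8%) of those with HCF1 only and 18.5% of those with HCF1 and OGT. Peaks with OGT only came close to the lone peaks, at 27.0% (22.1 to 32.4%). In the order of BAP1 peaks along the chromosomes, lone peaks formed 2953 runs, and 2174 of these were 1 lone peak between shared ones. The 233 runs of 3 or more held 810 lone peaks (19.9%). How many such runs the lone share of 23.4% alone would give was not worked out, so the counts of runs are a description. The longest had 8, on chromosome 15 from 85793673 to 85992959, with scores from 50.66 to 229.11. Its strongest member, at 85965506 to 85967722, was 2217 bp wide and scored 229.11. Lone peaks lay on either side of it, at 85964656 to 85965497 and at 85967847 to 85969575, with scores of 78.2 and 75.08.

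By chromosome the lone share ran from 19.3% (16.3 to 22.5%) on chromosome 19 to 30.1% (26.6 to 33.7%) on chromosome 14. The next highest was 25.9% (23.2 to 28.7%) on chromosome 1. Without the 3 Mb from 54 to 57 Mb, the share of chromosome 14 was 25.3% (21.7 to 29.1%), within the range of the others.

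**Figure D4:**
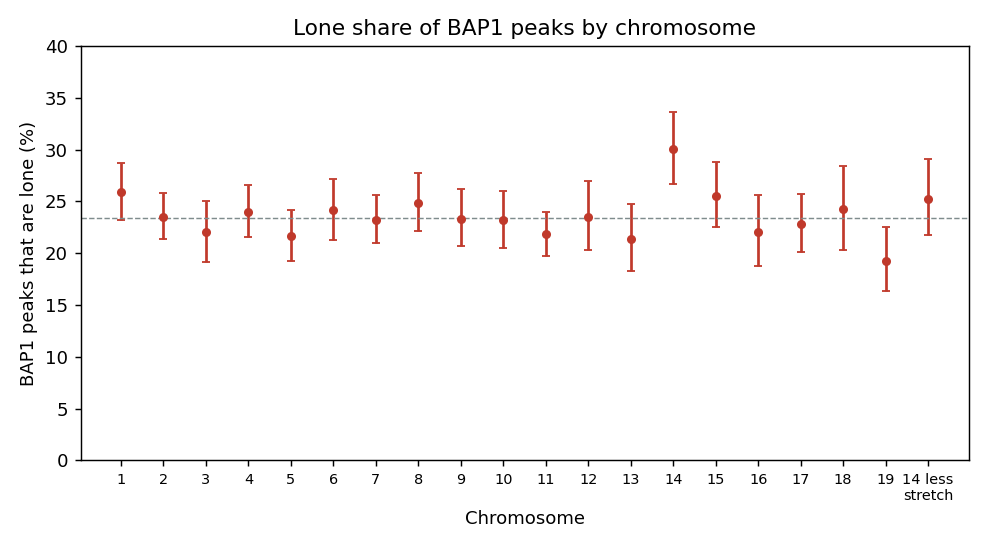
Share of BAP1 peaks that are lone (y axis, %) on each autosome (x axis) and, last, on chromosome 14 without the 3 Mb stretch. Points are shares, bars exact 95% intervals for counting error, and the dashed line the 23.4% of all autosomes. Chromosome 14 stands highest at 30.1%, and at 25.3% without the stretch.

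That stretch held 64 lone peaks among 124 BAP1 peaks (51.6%, 42.5 to 60.7%), against 23.2% (22.6 to 23.9%) elsewhere on the autosomes. The 1 Mb window from 55000001 to 56000000 had 39 lone peaks, the most of any, and the window after it 18. The third, on chromosome 10 from 80000001 to 81000000, had 16, but these were 16 of 80 BAP1 peaks (interval of the share 11.9 to 30.4%). Windows with any BAP1 peak numbered 1760, and their median was 1 lone peak. Across these windows the number of lone peaks rose with the number of shared BAP1 peaks (Spearman rho 0.63), a description of windows within the same library.

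The stretch held a larger part of the BAP1 list than of the others. It had 0.713% of the BAP1 list, 0.314% of the HCF1 list and 0.371% of the OGT list, which gives 1.28 BAP1 peaks per HCF1 peak against 0.563 over all autosomes. By single windows it was not the most extreme. Of 858 windows of 1 Mb with at least 20 BAP1 and HCF1 peaks in all, 3 stood above the one from 55000001, which had 1.42. These 3 held fewer peaks and lay on chromosome 9 from 48000001 (1.70, with 11 of 17 BAP1 peaks lone), chromosome 2 from 120000001 (1.62, with 8 of 21 lone) and chromosome 7 from 139000001 (1.44, with 7 of 13 lone). OGT peaks per HCF1 peak were 0.392 in the chromosome 14 stretch and 0.331 overall. Apart from 2 lone peaks from 54382108 onward, the dense part began at 54846351, and its last lone peak ended at 56382602. The megabase before the stretch had 1 BAP1 peak and the one after it 9, of which 1 was lone.

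Over all BAP1 peaks, the median score in the stretch was 125 (101.2 to 171) against 113 elsewhere, an interval that spans the outside value. The highest 2 score deciles held 37 of the 124 peaks of the stretch (29.8%), against 19.9% of the BAP1 peaks elsewhere. Split by the rule, its lone peaks had a median of 83.2 (74.4 to 105) against 70.1 (68.9 to 71.1) elsewhere, and its shared BAP1 peaks 282 (190 to 423) against 140. The larger lone share in the stretch changes what both of these medians are taken over. HCF1 scores there had a median of 98.7 (78.9 to 142) against 105, and OGT scores 86.4 (71.3 to 116) against 86.6. If each of the 124 peaks had the lone share of its score decile elsewhere, 25.9 would be lone in place of the 64 found. The stretch was picked for its many lone peaks, so an excess over that number was built in. The 2 numbers are a description, and no cause was tested. The lone peaks there were nearer to other sites than elsewhere, with a median gap of 6.11 kb (3.21 to 10.1 kb) against 10.7 kb (10.1 to 11.4 kb). The stretch was singled out after the windows were counted. The BAP1 library came from knock-in mice, while the HCF1, OGT and input libraries came from wild type mice, so the genotype and the protein cannot be told apart there. Reads were not analysed here, and whether the knock-in and wild type mice differ in copy number in this stretch was not tested. Such a difference would bear on the BAP1 counts and scores given for it.

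**Figure D5:**
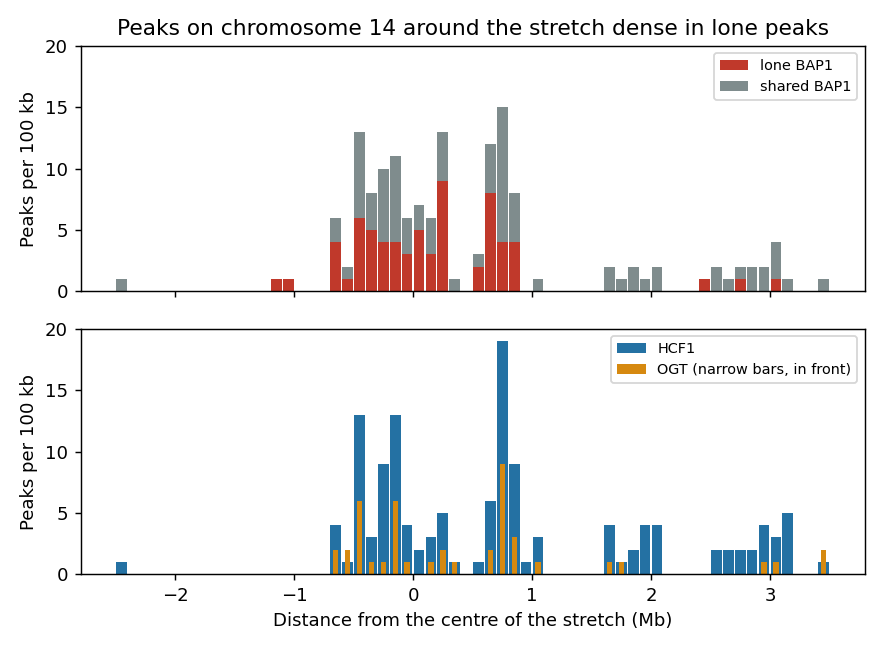
Peaks per 100 kb (y axes) on chromosome 14 against the distance from the centre of the 3 Mb stretch (x axis, Mb), with lone and shared BAP1 peaks stacked above, and HCF1 and OGT peaks below. The whole 3 Mb stretch has 124 BAP1 peaks, 64 of them lone. Most of these BAP1 peaks crowd between about 0.7 Mb before and 0.9 Mb after the centre.

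The other windows with a high lone share held fewer peaks. Of the 243 windows with at least 20 BAP1 peaks, the median lone share was 20.7%. After the first on chromosome 14, at 52.0%, came the window on chromosome 17 from 87000001 to 88000000, with 12 of 24 lone (interval of the share 29.1 to 70.9%), and the window on chromosome 14 from 56000001. The fourth, on chromosome 9 from 121000001 to 122000000, had 11 of 24 (45.8%, 25.6 to 67.2%).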

How the data were processed

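Peaks of 3 ChIP-seq libraries (BAP1, HCF1, OGT) were used. Input reads and reads of the libraries were not analysed here, so depth is unknown. GSNAP, MACS 1.4 and the mm9 build are named per the submitters' processing notes, without settings. Each list as deposited by the authors holds chromosome, start, end and a score per peak.

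Starts were read as counted from 0. Peaks of chromosomes 1 to 19 were compared by shared bases, gaps between edges and counts per 1 Mb window, with Python 3.11.15, pandas 2.3.3 and scipy 1.17.1. The interval code was tested on made-up peaks with known overlaps. Shares have exact Clopper-Pearson 95% intervals and medians order-statistic intervals, which cover counting error only and treat peaks as independent. No test was run. The tables of genes supplied here are for GRCm38, so 2 planned results, position relative to genes and base composition with motifs, were not run, and no gene or sequence is given. Regions named are the 10 highest-scoring, 5 widest and 5 farthest lone peaks (the last with a score of at least 100), 3 on each side of the rule, the longest run and the 3 richest windows; the other strong narrow peaks and the windows ranked by lone share or by BAP1 per HCF1 were named after their values were seen; peaks on chromosome 18 are counted but not named. Members and rules were chosen with earlier results of these data known. Overlap rule, score limit, start convention and stitching were varied.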

Additional observations from a re-analysis of the deposited data

How the results depend on the processing

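Of 70 recomputed values (7 results under 10 settings, 2 of them added after the data were seen), 29 stayed the same, which means that a share or median moved by less than its counting interval and that the number of lone peaks was within 1.5 times of 4076. By the latter measure the number stayed the same at 3590 with HCF1 and OGT extended by 1 kb, although the share did not. The 29 include every value with starts counted from 1 and every value without the chromosome 14 stretch (added).

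Extending HCF1 and OGT peaks by 250 bp gave 22.7% lone, a median gap of 11312 bp and 46.8% with a site within 10 kb. With 1 kb these were 20.6%, 13184 bp and 41.5%. Stitching BAP1 peaks within 1 kb gave 12295.5 bp and 44.6%.

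The match rule moved every value. With centres within 250 bp, 7503 peaks (43.1%) were lone, with a median score of 89.08, width of 1135 bp and gap of 649 bp, 72.0% within 10 kb and 46.2% with a lone nearest neighbour. With a reciprocal overlap of 50%, these were 6728, 38.7%, 82.705, 1063.5 bp, 1796 bp, 68.8% and 43.7%. By construction, both rules count as lone many peaks that touch HCF1 or OGT.

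A score of at least 100 in all 3 lists gave 1855 lone peaks, 18.97%, a score of 132.6, 1219 bp, a gap of 17898 bp, 36.8% and 25.8%. In the BAP1 list only, it gave 856, 8.76%, 128.17, 1160.5 bp and 14.7% with a lone neighbour. In the HCF1 and OGT lists only (added), it gave 6537, 37.6%, 75.93, 1016 bp, 18018 bp, 36.1% and 42.7%. The lone share was thus lower where the BAP1 list was cut and higher where only the HCF1 and OGT lists were cut. The causes were not tested.

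No paired analysis was possible because there is a single library for every protein. The limits are the same for every value: no replicate error, unknown depth, an undefined score, and a separate floor in each list, so a site below the HCF1 or OGT floor counts as lone. Other settings for distance to genes and base composition were not run, since no mm9 genome or annotation was used here.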
